A study of Mus musculus with 8 samples.

Results

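The interferon regulatory factors (IRFs) are transcription factors that share a DNA-binding domain for elements built around the bases GAAA. The 7 genes Irf1, Irf2, Irf4, Irf5, Irf7, Irf8 and Irf9 were taken by gene symbol from the 53465 gene IDs of the count files. All 7 were among the 14443 genes abundant enough to test, and the smallest count of any of them in any library was 1015. IRF3, IRF5 and IRF7 wait in the cytoplasm until kinases below pattern recognition receptors phosphorylate them, and then switch on interferon genes. Secreted interferon acts through its receptor on STAT proteins and IRF9, which form the complex ISGF3 and bind the interferon-stimulated response element (ISRE). IRF1 and IRF2 bind similar elements, IRF1 mainly as an activator below interferon gamma and IRF2 often as its antagonist. IRF4 and IRF8 bind weakly alone and work with AP-1 or ETS partners. In T cells, IRF4 is induced by the antigen receptor and is needed for effector regulatory T cells (Tregs).

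RNA was sequenced from CD4+ T cells of wild-type C57BL/6 mice that had been driven towards the Treg fate in culture. The cells came from spleen and lymph nodes. They grew on plate-bound anti-CD3 (5 µg/mL), with anti-CD28 in the medium at 0.5 µg/mL and TGF-β at 5 ng/mL. IL-2 was present at 100 U/mL, and antibodies at 10 µg/mL blocked IL-4, IL-12 and IFN-γ. At 72 h the cultures were divided, and 4 libraries came from cells kept without drug (control) and 4 from cells given 50 µM BMS309403 (treated), an inhibitor of fatty acid-binding proteins. Both groups therefore share antigen receptor stimulation and the blockade of IFN-γ. The labels give no age of the mice, no vehicle and no length of exposure, so effects of the compound and of a solvent cannot be told apart. Nor is it stated that the replicates of a group are different mice or separate cultures, and the p-values then describe a spread among libraries that could be technical.

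The libraries held between 32923433 and 44644485 counts. Principal component 1 (60.1% of the variance) separated the groups, and replicate 1 of each group lay highest on the second. The Treg and CD4 T cell markers summed to between 5886 and 6535 counts per 1000000 (CPM, with library sizes adjusted by TMM) in control and between 7207 and 7570 CPM in treated libraries. Foxp3, which encodes the factor that defines Tregs, lay between 901 and 1029 CPM in control and between 1234 and 1261 CPM in treated libraries (log2 fold change 0.39, edgeR adjusted p = 6.05e-05). Of the 10 markers 5 were called higher and 3 lower, beside 18.7% and 18.1% of all tested genes. Il2ra made up much of the sum, with means of 2562 CPM without and 3412 CPM with the drug. The lower calls were the antigen receptor genes Cd3e (log2 fold change -0.46, edgeR adjusted p = 2.54e-05), Cd3d (-0.36, 8.49e-05) and Trac (-0.21, 0.00924). In bulk RNA, fewer cells of a type and less RNA per cell cannot be told apart.

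Of the 7 IRF genes, 4 rose with treatment (Irf7, Irf9, Irf1 and Irf4), 1 fell (Irf8), and 2 did not pass the test (Irf2 and Irf5). Irf7 stood apart in size, at 5.39-fold, while the other rises lay between 1.34-fold and 1.46-fold and Irf8 was 1.17-fold lower. The test was edgeR's quasi-likelihood test with Benjamini-Hochberg adjustment over all 14443 genes. At an adjusted p under 0.05 it called 36.8% of all tested genes, 18.7% higher and 18.1% lower, beside 5 of the 7 IRF genes. Their median log2 fold change was 0.42, beside 0.007 over all tested genes. The groups of 4 libraries did not overlap for 4 of the 7 genes and for 33.8% of all tested genes. When a change of more than 1.5-fold was required (glmTreat), Irf7 alone of the 7 passed, beside 3.72% of tested genes. With the replicate number as a block, 6 of the 7 were called, beside 52.4% of tested genes, and Irf5 was the added call. With both libraries numbered 1 left out, 6 of the 7 were also called, beside 42.4% of the genes then tested.

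**Figure D1:**
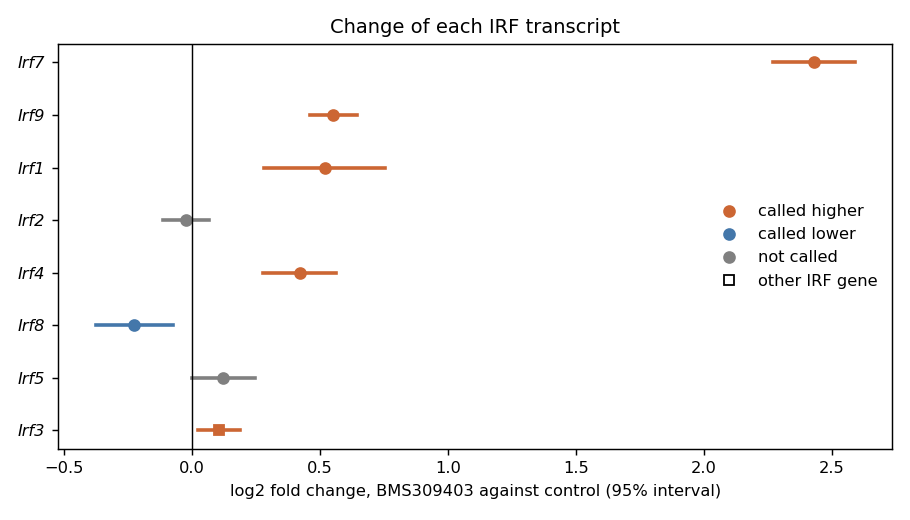
Fitted log2 fold change of each IRF transcript, treated against control libraries (n = 4 each), with its 95% interval; circles are the 7 genes described here, the square is Irf3, and colours mark genes called higher, called lower or not called. Irf7 lies at 2.43, the other called genes between -0.23 and 0.55.

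Stretches of the promoters are shown for the 3 genes in which an interferon, STAT or NF-κB element was found, and for Irf7, the gene that rose most. The RefSeq table (GRCm38.p6) gives windows of 300 bases, from 250 before to 50 after a transcription start, and 10 of them belong to the 7 genes. The elements searched on both strands were the ISRE as GAAANNGAAA, the STAT element GAS as TTCNNNGAA, and the NF-κB element as GGGANTTNCC. Matches are in capitals and each stretch is written 5′ to 3′ on the gene's own strand. The Irf1 stretch (chr11:53769894-53769953, plus strand) holds a GAS that starts 90 bases before the start. The Irf2 stretch (chr8:46739495-46739554, plus strand) holds an ISRE followed by a GAS that does not overlap it. The Irf8 stretch (chr8:120736168-120736227, plus strand) holds a pair of GAS matches. The Irf7 stretch (chr7:141266483-141266674, minus strand) is given in lower case throughout, since none of the 3 elements was found in its window.
Irf1: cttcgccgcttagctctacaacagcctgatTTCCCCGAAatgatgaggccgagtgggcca
Irf2: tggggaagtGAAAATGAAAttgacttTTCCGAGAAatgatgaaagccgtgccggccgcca
Irf8: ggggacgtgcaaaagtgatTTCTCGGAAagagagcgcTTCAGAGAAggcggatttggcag
Irf7: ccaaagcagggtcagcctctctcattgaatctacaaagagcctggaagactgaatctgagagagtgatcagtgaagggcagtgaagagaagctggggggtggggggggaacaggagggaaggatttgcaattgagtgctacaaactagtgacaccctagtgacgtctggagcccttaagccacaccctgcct

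No match was found in the windows of Irf4, Irf5 and Irf9 either, which says only that these letters are not in those windows. Of 32851 promoter windows in the table, 3.44% held the ISRE, 8.30% the GAS and 1.20% the NF-κB element. Among tested genes, 387 had an ISRE window, and of these 33.9% were called higher and 14.7% lower, with a median log2 fold change of 0.07. Of the 834 with a GAS, 24.8% were higher and 15.1% lower. Of the 166 with an NF-κB element, 31.9% were higher and 10.8% lower, with a median log2 fold change of 0.07, close to the ISRE values. Among all 10128 tested genes with a window, 20.1% were higher and 19.1% lower. The genes carrying a match moved in different ways: Irf1 rose, Irf8 fell and Irf2 did not pass the test.

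Irf7 (ENSMUSG00000025498, chromosome 7, 141262706 to 141266481, minus strand, GRCm38) encodes the main amplifier of type I interferon production and is itself an interferon-stimulated gene. Its level was 31.9, 25.3, 30.2 and 30.8 CPM in control replicates 1 to 4, and 152, 153.5, 155.7 and 174 CPM in treated replicates 1 to 4. Every treated library was far above every control library, and treated replicate 4 was the highest. The group means were 29.6 ± 2.91 and 158.9 ± 10.4 CPM (SD, n = 4). The fitted log2 fold change was 2.43 (SE 0.07) at an edgeR adjusted p = 1.19e-09. Only 0.325% of tested genes had a larger log2 fold change. Between libraries of the same number the ratio ran from 4.76 to 6.06. Irf7 shares 45 exon bases with Phrf1 on the opposite strand, whose log2 fold change was 0.09 (adjusted p = 0.0762).

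Irf9 (ENSMUSG00000002325, chromosome 14, 55603571 to 55610030, plus strand) encodes the DNA-binding subunit of ISGF3. It measured 92.2, 97.1, 99.4 and 101 CPM in the control and 138, 142, 144.5 and 147.5 CPM in the treated replicates. The groups were wide apart relative to their spread, and no library stood out. The log2 fold change was 0.55 (SE 0.04, edgeR adjusted p = 1.29e-06), a 1.46-fold rise that was alike in all 4 same-numbered pairs, from 1.46-fold to 1.49-fold. The annotation has 123 exon bases that Irf9 shares with its neighbour Rnf31 on the same strand. Rnf31, which encodes a ubiquitin ligase subunit, was 1.19-fold higher (edgeR adjusted p = 0.00145), and its part in the Irf9 count was not tested.

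Irf1 (ENSMUSG00000018899, chromosome 11, 53770014 to 53778374, plus strand) encodes an activator of antigen presentation and interferon gamma response genes. It measured 308, 229.5, 209.8 and 219.9 CPM in the control and 390, 338, 311 and 345 CPM in the treated replicates. Replicate 1 was the highest library of each group, and control replicate 1 came close to the lowest treated library, but the groups did not overlap. The means were 242 ± 44.9 and 346 ± 32.87 CPM (SD, n = 4), and the log2 fold change was 0.52 (SE 0.11, edgeR adjusted p = 0.00308). With both libraries numbered 1 left out it was 0.59 (edgeR adjusted p = 2.01e-06).

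Irf2 (ENSMUSG00000031627, chromosome 8, 46739732 to 46847458, plus strand) encodes the factor that competes with IRF1 at shared sites. It measured 99.5, 103, 102 and 109.8 CPM in the control and 104, 99.9, 101 and 103 CPM in the treated replicates. The treated libraries all lay inside the control range. Its log2 fold change was -0.02, with a 95% interval from -0.11 to 0.06 (edgeR adjusted p = 0.677).

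Irf4 (ENSMUSG00000021356, chromosome 13, 30749226 to 30766976, plus strand) encodes the factor that drives effector differentiation after antigen receptor signals. It measured 692, 598, 577 and 584 CPM in the control and 895, 802, 813 and 770.0 CPM in the treated replicates. Again replicate 1 was the highest of each group, and the groups did not overlap. The log2 fold change was 0.42 (SE 0.07, edgeR adjusted p = 4.08e-04), from 613 ± 53.5 to 820.0 ± 53.1 CPM (SD, n = 4). The 4 pair ratios ran from 1.29 to 1.41.

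Irf8 (ENSMUSG00000041515, chromosome 8, 120736358 to 120756694, plus strand) encodes a factor best known from myeloid and B cells that activated T cells also express. It measured 831.5, 712, 735 and 707 CPM in the control and 720, 613, 629 and 593 CPM in the treated replicates. The groups overlapped, since treated replicate 1 lay above control replicates 2 and 4, but within each of the 4 same-numbered pairs the treated library was lower, at 0.838 to 0.865 of its control. The log2 fold change was -0.23 (SE 0.07, edgeR adjusted p = 0.0236). This call was lost without treated replicate 2 (adjusted p = 0.0708), 3 (0.0554) or 4 (0.0717). It held with the replicate block (adjusted p = 1.35e-05) and with both libraries numbered 1 left out (adjusted p = 9.82e-04).

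**Figure D2:**
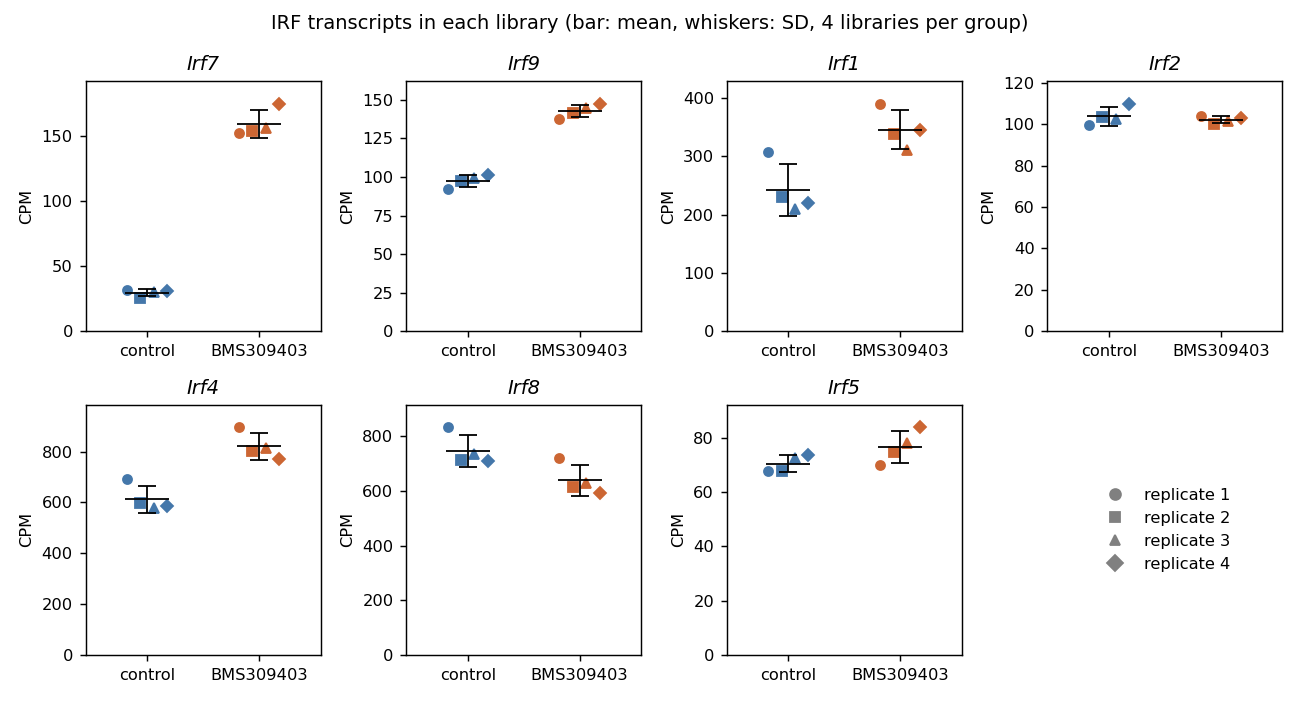
CPM of the 7 IRF genes in each library, with control libraries on the left and treated libraries on the right of each panel; marker shapes give the replicate number, the bar the mean and the whiskers the SD of 4 libraries, and each axis starts at 0. Irf7 lies between 25.3 and 31.9 CPM in control and between 152 and 174 CPM in treated libraries, while the Irf8, Irf5 and Irf2 groups overlap.

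Irf5 (ENSMUSG00000029771, chromosome 6, 29526625 to 29541871, plus strand) encodes an activator of inflammatory cytokine genes below Toll-like receptors. It measured 67.7, 67.9, 72.6 and 73.6 CPM in the control and 70.1, 74.8, 78.2 and 83.9 CPM in the treated replicates. The groups overlapped, and the treated library was higher in all 4 pairs, by 1.03-fold to 1.14-fold. The log2 fold change was 0.12, with a 95% interval from -0.0008 to 0.25 (edgeR adjusted p = 0.11). It passed with the replicate block (adjusted p = 0.00628), without treated replicate 1 (0.0338) and with both libraries numbered 1 left out (0.0372). Irf5 shares 411 exon bases with Tnpo3 on the opposite strand, whose log2 fold change was -0.01 (adjusted p = 0.876).

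Irf3, the partner of IRF7 in interferon induction, averaged 84.4 ± 1.74 CPM without and 90.8 ± 2.31 CPM with the drug (SD, n = 4). Its log2 fold change was 0.11 (edgeR adjusted p = 0.0431). Its call was lost without any 1 of the 4 control replicates (adjusted p from 0.0607 to 0.106) and without treated replicate 2, 3 or 4 (adjusted p from 0.0545 to 0.122), and also with DESeq2 (0.0501) and with no filter on low counts (0.132). Of the IRF2-binding co-regulators, Irf2bp2 was 1.15-fold higher (edgeR adjusted p = 0.0143) and Irf2bpl 1.13-fold lower (0.00803), and Irf2bp1 had a log2 fold change of -0.05 (0.379).

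Levels of different genes were compared as CPM per kilobase of exon (CPM per kb), with no test. By the union of all annotated exons, the control order was Irf4, Irf8, Irf1, Irf5, Irf9, Irf2 and Irf7 in all 4 libraries. Irf4 stood at 125 ± 10.9, Irf8 at 106 ± 8.22, Irf1 at 60.8 ± 11.3 and Irf7, the lowest, at 7.83 ± 0.771 CPM per kb (SD, n = 4). Between them lay Irf5 at 24.3 ± 1.07, Irf9 at 18.1 ± 0.727 and Irf2 at 14.0 ± 0.594 CPM per kb. Only the ranges of Irf4 and Irf8 overlapped across control libraries, and Irf4 was higher within each. In the treated libraries Irf7 moved from place 7 to place 4 in all 4, at 42.1 ± 2.76 CPM per kb. Irf9 and Irf5 changed places between treated libraries, at 26.5 ± 0.778 and 26.4 ± 2.00 CPM per kb, and in treated replicate 4 Irf1 stood above Irf8. The treated means of Irf8 and Irf1, 90.5 ± 7.95 and 87.0 ± 8.27 CPM per kb, were within their spread of each other. With the length of the longest coding transcript, Irf8 stood above Irf4 in all 8 libraries, at 262 ± 20.4 against 129 ± 11.2 CPM per kb in control. The order of that pair therefore depends on the transcript taken, while Irf7 was in place 7 in every control and in place 4 in every treated library by both lengths.

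Shares of the summed CPM per kb of the 7 genes were taken by the union of exons. Irf7 went from 2.20 ± 0.203% to 9.30 ± 0.869% and Irf8 from 29.7 ± 0.616% to 19.9 ± 0.864% (SD, n = 4). Irf4 held 35.1 ± 0.454% in control and 36.9 ± 1.02% in treated libraries. The mean of the sum rose from 355.8 to 453.6 CPM per kb, while Irf8 itself went from 106 to 90.5 CPM per kb. The lower Irf8 share thus reflects the larger sum as well as the lower Irf8 level. Shares by the longest coding transcript were not computed. By that length Irf8 stood above Irf4 in every library, so the order of their control and treated shares would be reversed. The ratio of Irf4 to Irf8, which share partners and sites, was 1.20, 1.21, 1.13 and 1.19 in the control and 1.79, 1.88, 1.86 and 1.87 in the treated libraries. Although the Irf8 groups overlapped in CPM, the ratio groups were far apart. By the longest coding transcript the same ratio went from 0.490 ± 0.0148 to 0.769 ± 0.0176.

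The ratio of Irf1 to its antagonist Irf2 was 5.76, 4.14, 3.82 and 3.72 in the control and 6.995, 6.29, 5.71 and 6.22 in the treated libraries. Control replicate 1 lay above treated replicate 3, so that these groups overlapped. The ratio of Irf7 to Irf3, the inducible to the constitutive partner, went from 0.320 ± 0.0331 to 1.59 ± 0.0759. The ratio of Irf9 to Stat2, its partner in ISGF3, went from 0.784 ± 0.0411 to 0.525 ± 0.0313, with no overlap between the groups. These ratios used the union of exons. By the longest coding transcript Irf9 to Stat2 went from 1.06 ± 0.0555 to 0.709 ± 0.0423. Which of these genes stood higher in control thus depends on the transcript taken. Irf1 to Irf2 went from 2.74 ± 0.598 to 3.96 ± 0.333 by that length.

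**Figure D3:**
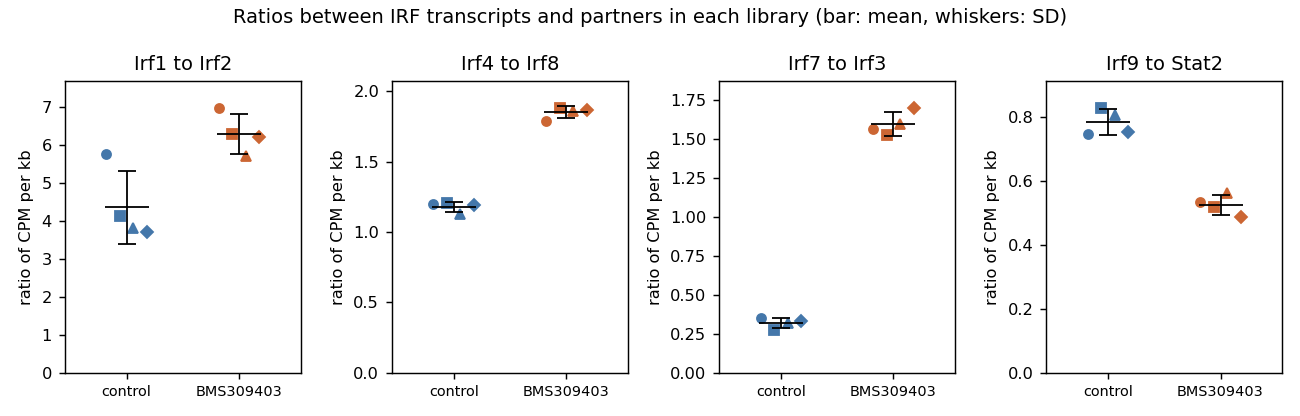
Ratios of CPM per kb (union of exons) in each library for Irf1 to Irf2, Irf4 to Irf8, Irf7 to Irf3 and Irf9 to Stat2; marker shapes give the replicate number as in the plot of CPM by library, bars the mean and whiskers the SD of 4 libraries. The Irf4 to Irf8 ratio lies between 1.13 and 1.21 in control and between 1.79 and 1.88 in treated libraries, and the Irf1 to Irf2 groups overlap.

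For each gene the most alike of 9522 other genes, up to 3, were taken by Pearson's r of log2 CPM over the 8 libraries, as a description. These points share their libraries and fall in 2 groups, so that r is high for any gene with a like contrast. For Irf7 they were Mx1 (r = 0.9999), an antiviral GTPase, Aebp2 (0.9996) and Oas3 (0.9988), and for Irf9 Rnf114 (0.9978), Dennd5a (0.9974) and Dhx58 (0.9972). For Irf1 they were Tgtp2 (0.9954), Fem1a (0.9905) and Mindy3 (0.9899). For Irf4 they were Dtx3l (0.9925), Rab8b (0.9924) and Myc (0.9923), and for Irf8 Smyd5 (0.9969) and Acsl5 (0.9943). The values were lower for the genes that did not pass: Ccdc181 (0.9699), Mocs2 (0.9675) and Rab6b (0.964) for Irf5, and C1galt1 (0.97), Zfp41 (0.9338) and Pmaip1 (0.9329) for Irf2.

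Interferon transcripts themselves were scarce. Of 10 interferon genes listed, Ifng alone was abundant enough to test. The type I genes held few counts summed over 4 libraries: Ifnb1 had 2 in control and 11 in treated libraries, Ifna4 1 and 27, Ifna2 1 and 10, and Ifna1 0 and 5. Each library held at most 0.233 CPM of Ifna4. The interferon alpha genes are near-identical copies, so reads may be split between them. The type III gene Ifnl2 had 8 and 37 counts. Ifng measured 8.09, 3.03, 2.85 and 2.84 CPM in the control and 16.5, 7.40, 8.04 and 8.03 CPM in the treated replicates. Replicate 1 was the highest library of both groups, and the groups overlapped (log2 fold change 1.27, edgeR adjusted p = 0.0148). That call was lost without control replicate 2 (0.0511) or 3 (0.0516).

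Below the type I receptor, Stat2 rose from 137 ± 8.04 to 300.5 ± 23.7 CPM (SD, n = 4), a change of 1.13 on the log2 scale (edgeR adjusted p = 7.65e-08). It encodes the partner of IRF9 in ISGF3, and like Irf9 it rose without overlap between the groups. Of the 6 genes of the type I receptor and its signalling, 3 were higher (50%, beside 18.7% of all tested genes) and 1 lower (16.7%, beside 18.1%). Tyk2 was 1.24-fold higher and Jak1 1.12-fold lower. The receptor chains Ifnar1 (log2 fold change 0.07, edgeR adjusted p = 0.392) and Ifnar2 (-0.04, 0.664) did not pass. Of 5 genes of the type II and III receptors, 2 were higher (40%, beside 18.7%) and 1 lower (20%, beside 18.1%). Ifnlr1 was 2.63-fold higher, though only at 1.97 CPM in treated libraries, and Jak2 was 1.33-fold higher. Ifngr1, the ligand-binding chain for interferon gamma, was 1.45-fold lower (edgeR adjusted p = 1.08e-04).

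Among 24 sensors, adaptors and kinases that activate IRF3, IRF5 and IRF7, 16 were called higher and 2 lower, at a median log2 fold change of 0.24, beside 18.7% higher and 18.1% lower among all tested genes. The RNA sensors led: Tlr3 rose 7.28-fold from 0.108 to 0.750 CPM, Ifih1 (MDA5) 4.05-fold, Ddx58 (RIG-I) 3.23-fold and Tlr7 3.12-fold. The kinases that phosphorylate IRF3 and IRF7, named after their values were seen, moved little. Tbk1 was 1.12-fold higher (edgeR adjusted p = 0.0108) and Ikbke 1.19-fold higher (0.041), a call that was lost in turn without control replicate 1, 2 or 3 and without treated replicate 2 or 4 (adjusted p from 0.0612 to 0.12). Of 16 inhibitors of IRF proteins or interferon signalling, 7 were higher (43.8%, beside 18.7% of all tested genes) and 3 lower (18.8%, beside 18.1%), with a median of 0.05. Usp18, which blocks the type I receptor, went from 11.2 ± 2.41 to 87.5 ± 9.67 CPM, Trim30a rose 2.79-fold, and Trim21, a ubiquitin ligase for IRF proteins, 1.79-fold. Socs1, an inhibitor of Janus kinases, rose 1.67-fold.

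Of 14 genes listed as inducers of Irf4 in stimulated T cells, 11 were higher (78.6%, beside 18.7% of all tested genes) and 2 lower (14.3%, beside 18.1%). Their median log2 fold change was 0.36. The list also holds Nr4a1, Nr4a2 and Nr4a3, all called higher, which need not be inducers of Irf4. The NF-κB subunit genes Rel, Nfkb2 and Relb rose 1.61-fold, 1.60-fold and 1.51-fold. Of 17 tested genes listed as AP-1 and ETS partners of IRF4 and IRF8, 8 were higher (47.1%, beside 18.7%) and 5 lower (29.4%, beside 18.1%). Their median log2 fold change was 0.13. The list is wider than its name, since it also holds Ikzf1, Ikzf3, Nfatc1, Nfatc2 and Stat3, which are neither AP-1 nor ETS genes. Among these, Ikzf3, Nfatc1 and Nfatc2 were called lower and Stat3 higher. Batf3 rose 3.99-fold to 4.12 CPM, Batf2 2.85-fold to 0.8289 CPM and Spib 1.62-fold to 3.09 CPM, all low, while Fos was 1.47-fold lower. Among the AP-1 partners of IRF4 in T cells, Batf was 1.25-fold higher (edgeR adjusted p = 0.0046) and Junb 1.32-fold higher (1.00e-04). Jun (log2 fold change 0.05, edgeR adjusted p = 0.418) and Jund (0.08, 0.253) did not pass. Batf, Junb, Jun and Jund were named after their values were seen. Spi1, the ETS partner in myeloid cells, was too low to test, with 39 counts in control and 28 in treated libraries.

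Genes known to depend on IRF proteins in other settings were then counted, list by list, beside the 18.7% of all tested genes called higher and 18.1% called lower. Of 32 antiviral genes that depend on IRF7 and ISGF3, 31 were higher and 0 lower, and their median log2 fold change was 2.10. The rise of interferon-stimulated genes in these libraries was known when the list was chosen. Mx1, Rsad2, Ifi44 and Ifit3b led, at 16.9-fold, 13.2-fold, 10.9-fold and 10.4-fold, and Ifi27 did not pass (log2 fold change 0.12, edgeR adjusted p = 0.187, 0.0147 with the replicate block). Of 24 IRF1-dependent genes, 20 were higher and 0 lower, with a median of 0.67. The chemokine gene Cxcl10 rose 10.5-fold to 3.31 CPM, Cxcl9 6.53-fold to 0.543 CPM, Il15 5.70-fold to 0.807 CPM, and Xaf1, a pro-apoptotic gene, 3.71-fold to 90.7 CPM. Those that did not pass included the immunoproteasome genes Psmb8 (log2 fold change -0.04, adjusted p = 0.602) and Psmb10 (0.15, 0.0681), and Ciita (-0.11, 0.65), the regulator of MHC class II. Psmb9, also an immunoproteasome gene of this list, was called higher (log2 fold change 0.18, edgeR adjusted p = 0.00359). Psmb10 passed in 6 of 17 alternatives: with the replicate block (7.27e-04), without control replicate 1 (0.00252), with both libraries numbered 1 left out (0.0034), with total counts (0.0278), with upper quartile scaling (0.0397) and with no filter on low counts (0.0414). Many of these genes are induced by more than 1 IRF or STAT protein, and Ddx58, Ifih1, Usp18 and Socs1 stand in more than 1 list. Tlr9 stands both among the activators and among the IRF8-dependent genes. Il2ra, Ctla4, Ikzf2 and Tnfrsf18 are both Treg markers and listed as IRF4-dependent.

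Of 19 tested effector Treg genes that depend on IRF4, 10 were higher and 4 lower, with a median log2 fold change of 0.28. Il1r2, a decoy receptor for interleukin 1, rose 3.49-fold to 5.88 CPM, Areg, a tissue repair factor, 2.31-fold to 1.36 CPM, and Ikzf2, which encodes Helios, 1.78-fold to 54.3 CPM. Tigit, an inhibitory receptor, measured 22.03, 25.2, 24.7 and 26.7 CPM in the control and 15.1, 12.1, 14.1 and 12.9 CPM in the treated replicates (log2 fold change -0.87, edgeR adjusted p = 6.69e-06). Prdm1, which encodes Blimp-1 and was named after its values were seen, was 1.37-fold lower (adjusted p = 0.00282). Members of this list thus moved in both directions.

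Of 12 tested genes that depend on IRF8 in myeloid and B cells, 3 were higher and 5 lower, with a median of -0.11. H2-Ab1, an MHC class II chain, was 1.89-fold lower (edgeR adjusted p = 7.05e-04) and Bcl6 1.45-fold lower (0.00125). Cd74, the invariant chain, was 1.56-fold higher (6.97e-06). H2-Eb1 was 1.39-fold lower at 3.46 CPM (0.0476), a call lost without control replicate 2 or 3 and without treated replicate 1, 2 or 4 (adjusted p from 0.0749 to 0.148). The H2-Eb1 call was also lost with total counts (0.0524), with upper quartile scaling (0.0524) and with both libraries numbered 1 left out (0.0605). It was kept in 8 of 17 alternatives. H2-Aa, another MHC class II chain, did not pass (log2 fold change -0.08, edgeR adjusted p = 0.728).

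**Figure D4:**
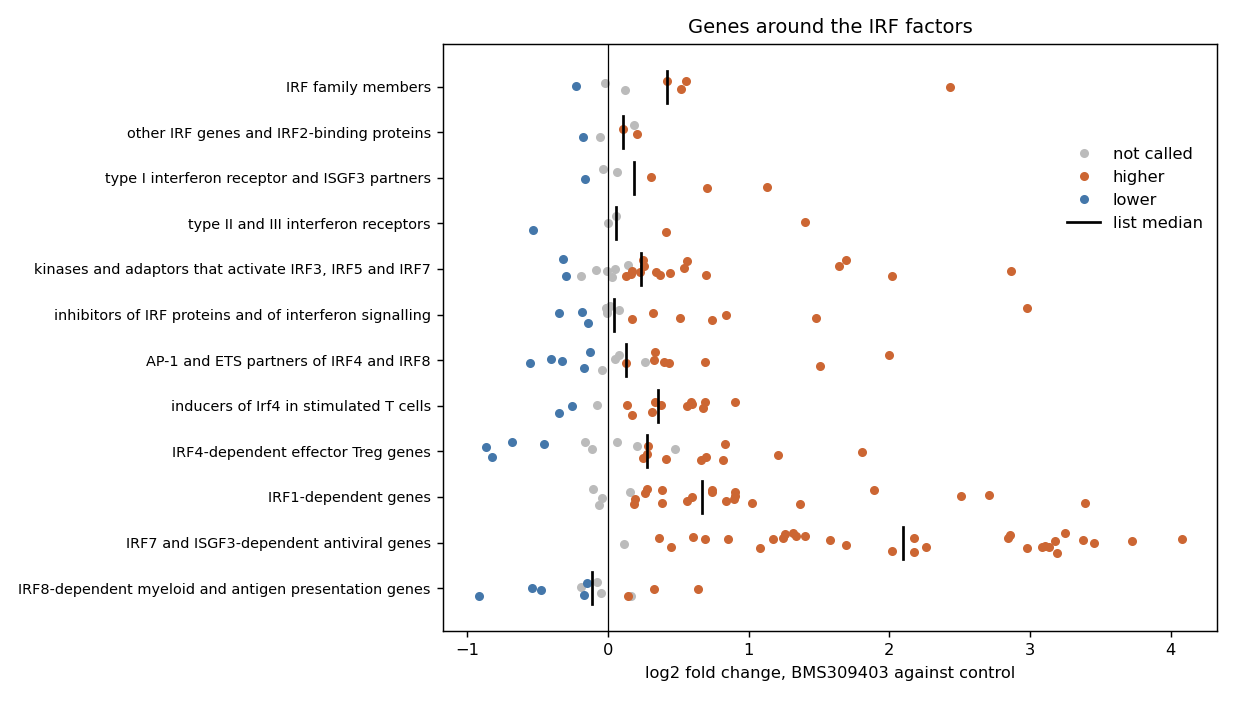
Log2 fold change (treated against control, n = 4 each) of every tested gene in the lists around the IRF genes, 1 point per gene, coloured by its call; black bars are list medians, and vertical scatter within a row has no meaning. The medians run from -0.11 for the IRF8-dependent genes to 2.10 for the antiviral genes, beside 0.007 for all tested genes.

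Markers of other cell types that express IRF genes strongly were low. The 11 macrophage and monocyte markers summed to between 25.1 and 39.4 CPM in control and between 85.5 and 102 CPM in treated libraries. Without Mpeg1, whose protein forms pores in phagocytosed microbes, the ranges were 4.77 to 6.69 and 3.53 to 6.54 CPM and overlapped. Of the 4 markers abundant enough to test, Mpeg1 was 3.40-fold higher (edgeR adjusted p = 7.03e-07), Adgre1, the F4/80 antigen gene, went from 0.565 to 0.137 CPM (9.40e-04), and 2 did not pass. The 10 dendritic cell markers summed to between 14.4 and 16.4 CPM in control and between 22.8 and 28.0 CPM in treated libraries. Of 3 tested dendritic cell markers 2 were higher and 0 lower, beside 18.7% and 18.1% of all tested genes. Zbtb46 rose 2.48-fold to 8.89 CPM (edgeR adjusted p = 1.33e-05) and Tcf4 1.36-fold to 15.0 CPM (6.37e-04). Without Zbtb46 and Tcf4 the sum was less than 1 CPM in every library. Cd209a was at 0 in all libraries. B and plasma cell markers summed to between 10.3 and 15.0 CPM in control and between 7.93 and 11.0 CPM in treated libraries, and of 9 tested markers 0 were higher and 2 lower, beside 18.7% and 18.1% of all tested genes. CD8 T cell and NK cell markers summed to between 11.5 and 18.1 CPM over all libraries, with Ncr1 at 0. Of 3 tested markers in that list 1 was higher and 0 lower, beside 18.7% and 18.1%. It was Eomes, 1.99-fold higher at 3.48 CPM (edgeR adjusted p = 0.0131), with overlapping groups. The part of such cells in the IRF values was not tested.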

How the data were processed

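Total RNA of in vitro polarized mouse Tregs, 4 control and 4 treated libraries, was sequenced after stranded poly(A) selection, per the labels' protocols. The authors deposited 1 file of counts per library: whole numbers of reads per Ensembl gene, not normalized. STAR, featureCounts, DESeq2 and deepTools and the build GRCm38 are named in the submitters' processing notes. Versions, the annotation release, the strand setting and the treatment of reads with several matches are not given in the sources used here.

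Symbols, coordinates and exon lengths came from GENCODE M21, and 53360 of 53465 IDs matched. Counts were tested with edgeR 4.0.16 (R 4.3.3, limma 3.58.1) by the quasi-likelihood test after filterByExpr and TMM normalization, with the group alone in the model. P-values were adjusted over 14443 genes, and genes under 0.05 were called. CPM per kilobase used the union of exons, or the longest coding transcript, an alternative chosen after seeing the data. Marker sums without Mpeg1, Zbtb46 and Tcf4, and the fit with both libraries numbered 1 left out, were also chosen after seeing the data. Total counts of 32923433 to 44644485 per library put every member at 1015 counts or more.

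All 7 members were named, with up to 4 called genes of each list by size of change. Of the genes not called, and of those beyond 4, some were named for their role after their values were seen, among them Cgas, Tmem173, Malt1, Il2ra, Foxp3, Rnf31, Tnpo3 and the marker genes. A few genes that fit these criteria are not reported here. Members and lists were chosen with earlier results of these data known. Same-numbered libraries deviated together (correlations across genes of 0.384, 0.145, 0.106 and 0.264 for numbers 1 to 4), and the replicate number was therefore used as a pairing. The labels say that cultures were divided but not that numbers mark them, and treated replicate 2 correlated best with control replicate 4 (0.208). Alternatives were other scalings, no filter on low counts, DESeq2 1.42.0, limma-voom, the replicate block, glmTreat above 1.5-fold and each library left out. Protein sequences were not used here.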

Additional observations from a re-analysis of the deposited data

Results flagged for a closer look

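In 10 of 150 groups of 4 libraries, 1 library lay far from the other 3 relative to the range of the group. Chance flags about 1 group in 20. Among the 7 IRF genes this held once: Irf7 was at 174.4 CPM in treated replicate 4, with the other treated libraries between 152 and 155.7 CPM. Without that library the Irf7 log2 fold change stayed past the threshold, as it did in every other alternative run.

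The other flags fell on replicate 1. Ifng was at 8.09 CPM in control replicate 1 (others 2.84 to 3.03) and at 16.5 CPM in treated replicate 1 (others 7.40 to 8.04). In control replicate 1, Il2ra was high at 3007 CPM (others 2355 to 2465), as were Tmem173 at 298.1 CPM (others 244.7 to 253.1), Cgas at 15.8 CPM (others 11.96 to 12.54) and Batf2 at 0.527 CPM (others 0.202 to 0.238). Malt1 was low in that library, at 164 CPM (others 178.3 to 181). In treated replicate 1, Socs1 was high at 253.9 CPM (others 208.4 to 215.8) and Relb low at 121.9 CPM (others 131.8 to 133.7).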

How the results depend on the processing

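Irf7 stayed called higher in all 17 alternatives, with a log2 fold change between 2.36 and 2.48. When a change over 1.5-fold was required (glmTreat), the genes called fell to 342 higher and 195 lower and the IRF genes to 1 higher and 0 lower. Irf1 (log2 fold change 0.52), Irf4 (0.42), Irf8 (-0.23) and Irf9 (0.55) then no longer passed, each at an adjusted p of 1. With each library left out in turn, 4 to 5 IRF genes were higher and 0 to 1 lower, among 2078 to 2939 genes higher and 2007 to 2779 lower. In those fits the log2 fold change of Irf8 lay between -0.29 and -0.17 (adjusted p from 0.00371 to 0.0717) and that of Irf5 between 0.078 and 0.16 (0.0338 to 0.306). With the replicate block, which pairs same-numbered libraries, Irf5 passed (0.12, adjusted p = 0.00628), and so it did with both libraries numbered 1 left out (0.14, 0.0372). With the block 3845 genes were higher and 3728 lower. It changed no call of the other 6 IRF genes. For 68 other named genes, 1082 of 1156 values kept their side of the threshold, 64 lost it, 10 gained it and 0 changed direction. Other scalings moved the share of calls that were higher between 48.8% and 55.5%, from 50.7%.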
